A study of Mus musculus with 6 samples.

Results

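The SLAM family comprises cell surface receptors of the immunoglobulin superfamily. The 7 genes described here, Slamf1, Cd48, Cd84, Ly9, Slamf6, Slamf7 and Slamf8, were chosen by name, out of 34745 genes listed. Bulk RNA-seq was carried out on hematopoietic stem cells (HSCs) sorted from adult C57BL/6 bone marrow, with 3 libraries labelled WT and 3 labelled KO. WT mice carried floxed Med23 alleles without Cre. KO mice carried the same floxed alleles together with Mx1-cre, a Cre driven by an interferon-inducible promoter that is active in many tissues. Deletion was induced by poly(I:C). The study's blood counts compared WT and KO mice after poly(I:C), and its methods do not say whether the sequenced WT mice received it. Cre was present in the KO mice only, so the deletion and the presence of Cre cannot be told apart. The labels do not say whether each library came from 1 mouse or from a pool. P-values therefore measure the spread between these libraries, which may in part be technical.

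Most SLAM receptors bind another copy of themselves on a neighbouring cell. CD48 is different, since it is anchored in the membrane by a lipid and serves as the ligand of CD244 and, in the mouse, of CD2. Inside the cell, the receptors recruit small adaptors of the SAP family, which couple them to the kinase Fyn, or recruit phosphatases. In mouse bone marrow, the combination of CD150 (the product of Slamf1) on the surface with no CD48 is a standard way to separate stem cells from progenitors, and CD244 appears on multipotent progenitors. The cells measured here were sorted as lineage-negative, Sca1-positive, cKit-positive cells with CD150 and without CD34 and CD48. Both groups thus passed through a gate set on the proteins of 2 of the 7 genes, and the transcript levels of Slamf1 and Cd48 describe cells already selected in this way.

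All 7 genes lie on chromosome 1, within 1002 kb from 171588624 to 172590568 by GENCODE M21 for the GRCm38 build. From the lowest coordinate, Ly9 (ENSMUSG00000004707) spans 171588624 to 171607410 on the minus strand. Slamf7 (ENSMUSG00000038179) spans 171632403 to 171653035, also on the minus strand. Cd48 (ENSMUSG00000015355) lies on the plus strand from 171682009 to 171705258. Slamf1 (ENSMUSG00000015316) follows on the plus strand from 171767127 to 171801184. Cd84 (ENSMUSG00000038147) spans 171839697 to 171890718 and Slamf6 (ENSMUSG00000015314) spans 171917515 to 171953170, both on the plus strand. Slamf8 (ENSMUSG00000053318) stands apart from the others, 814.6 kb above the Slamf1 start, from 172581758 to 172590568 on the minus strand. Ly9 lies wholly inside the span of Cd244 (ENSMUSG00000004709, named Cd244a in the annotation), which is on the opposite strand, and the annotated exons of the pair share 0 bases. Slamf7 shares 423 exon bases with an antisense transcript, Gm37787. Whether strand was used in counting is not given in the sources used here.

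The sequence upstream of the start is shown for Slamf1 and Cd48, whose proteins defined the gate, and for Cd244, the receptor of CD48, whose counts in KO lay above those in WT in every library. Each is the 250 bases before the RefSeq start (GRCm38.p6, plus strand), at chr1:171766882-171767131 for Slamf1, chr1:171681742-171681991 for Cd48 and chr1:171558943-171559192 for Cd244. Capitals mark matches to the E-box CANNTG and to the short GATA motif GATAA on either strand.
Slamf1: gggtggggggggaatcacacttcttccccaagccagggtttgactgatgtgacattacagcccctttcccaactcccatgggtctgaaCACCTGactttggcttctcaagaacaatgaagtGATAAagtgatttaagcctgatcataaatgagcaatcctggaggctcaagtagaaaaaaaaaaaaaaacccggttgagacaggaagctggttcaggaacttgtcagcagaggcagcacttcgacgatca
Cd48: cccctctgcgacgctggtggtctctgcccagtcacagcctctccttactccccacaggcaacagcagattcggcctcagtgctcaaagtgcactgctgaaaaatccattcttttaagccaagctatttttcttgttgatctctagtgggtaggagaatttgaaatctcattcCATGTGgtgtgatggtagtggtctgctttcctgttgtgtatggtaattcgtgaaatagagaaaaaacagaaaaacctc
Cd244: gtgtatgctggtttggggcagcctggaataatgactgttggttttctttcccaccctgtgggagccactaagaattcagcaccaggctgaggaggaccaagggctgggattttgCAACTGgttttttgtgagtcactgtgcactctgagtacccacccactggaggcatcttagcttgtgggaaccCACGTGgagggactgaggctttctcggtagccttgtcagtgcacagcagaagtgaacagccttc
An E-box was found 1 time upstream of Slamf1 and of Cd48 and 2 times upstream of Cd244, and 66.2% of 32851 promoter windows of the same length hold at least 1. GATAA was found upstream of Slamf1 and in 22.6% of all windows. The letters were partly changed after these windows had been read: the longer form AGATAA, searched first, has no match in any of the 3 windows (9.99% of all windows hold it), and GATAA was searched afterwards. Also without a match in the 3 windows were CCGGAAGT (ETS, 2.88% of windows), GAGGAA (PU.1 core, 23.3%, also added afterwards), GCGTGGGCG (EGR, 0.536%) and TATAAA (12.4%). A match describes letters in these windows and does not show that a factor binds there.

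Reads counted on genes ranged from 3537269 to 8131344 per library. A gene with 3 counts or fewer in a library was treated as not detected there. These 3 counts corresponded to 0.369 to 0.927 CPM after TMM normalization, which puts the libraries on 1 scale of depth. Med23, the targeted gene, had 232, 576 and 78 counts in the WT libraries, in replicate order, and 156, 164 and 182 in the KO libraries. At 24.1 CPM, the library labelled WT replicate 3 was below every KO library (29.8 to 36.8 CPM), so Med23 counts did not separate the groups. On Med23 alone, this is opposite to the direction of its label. These counts cover the whole gene and not only the floxed exons, so they do not measure the deletion itself. The study reports efficient removal of Med23 after poly(I:C). The values of Slamf1, Cd48 and Cd244 are therefore also given without WT replicate 3. Replicate 3 of both groups also stood apart in the summed counts of 4 Y-linked genes, which were 1 and 0 there and at least 1036 in the other 4 libraries. Replicate 3 thus held almost no RNA of male cells, unlike the other 4 libraries. The part of this difference in the results below was not tested. All 8 HSC markers examined were detected in all 6 libraries. Cd3e, Ms4a1, Ncr1, Ly6g, Mcpt8 and Jchain, which mark T, B, NK, granulocyte, basophil and plasma cells, were at 0 in all of them. The 6 skeletal muscle genes summed to 107.2 to 260.2 CPM in WT and 3.44 to 6.92 CPM in KO. Of the 6, 5 were lower in KO without overlap, beside 6.15% of all genes tested, and Ckm overlapped. For these 5, WT replicate 3 thus lay above every KO library. Their part in the results below was not tested.

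Of the 7 SLAM members, 5 were detected and 4 passed the filter on low counts. None of the 4 passed the test between KO and WT (edgeR's quasi-likelihood test, Benjamini-Hochberg adjusted p under 0.05). Across all 12513 genes tested, 9 did (0.0719%). They included the muscle genes Acta1, Actc1 and Myh3, all lower in KO (edgeR adjusted p = 0.0043, 0.025 and 0.0043). Med23 was not called, and its groups overlapped (log2 fold change -0.54, edgeR adjusted p = 0.99). DESeq2 likewise called 0 members, and 0 of the 4 had an unadjusted p under 0.05 in edgeR. Cd48, which did not pass the filter, is described below. The log2 fold changes of the 4 members ran from -0.77 to 0.33 with a median of -0.16, beside a median of -0.0054 over all genes tested. With 3 libraries against 3, an exact two-sided permutation test of 1 gene cannot go below p = 0.1.

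Slamf1 encodes CD150, the receptor on which the gate was set. It was counted 472, 740 and 68 times in WT replicates 1 to 3, or 96.8, 90.9 and 21.0 CPM. In KO replicates 1 to 3 it was counted 184, 320 and 136 times, or 37.3, 58.2 and 27.5 CPM. WT replicates 1 and 2 were above every KO library and WT replicate 3 was below every KO library, so the groups overlapped. The means were 69.6 ± 42.2 CPM in WT and 41.0 ± 15.7 CPM in KO (SD, n = 3 in each group). The log2 fold change was -0.77 (standard error 0.52, 95% interval -1.92 to 0.39, edgeR adjusted p = 0.99), and the exact permutation p was 0.6. Without WT replicate 3 the log2 fold change was -1.19 (edgeR adjusted p = 0.55), more than 1.5 times the value with it. Without replicate 3 of both groups it was -0.96 (edgeR adjusted p = 0.68). Without WT replicate 1 it was -0.46 (edgeR adjusted p = 0.97), and over all single libraries left out it stayed below 0.

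**Figure D1:**
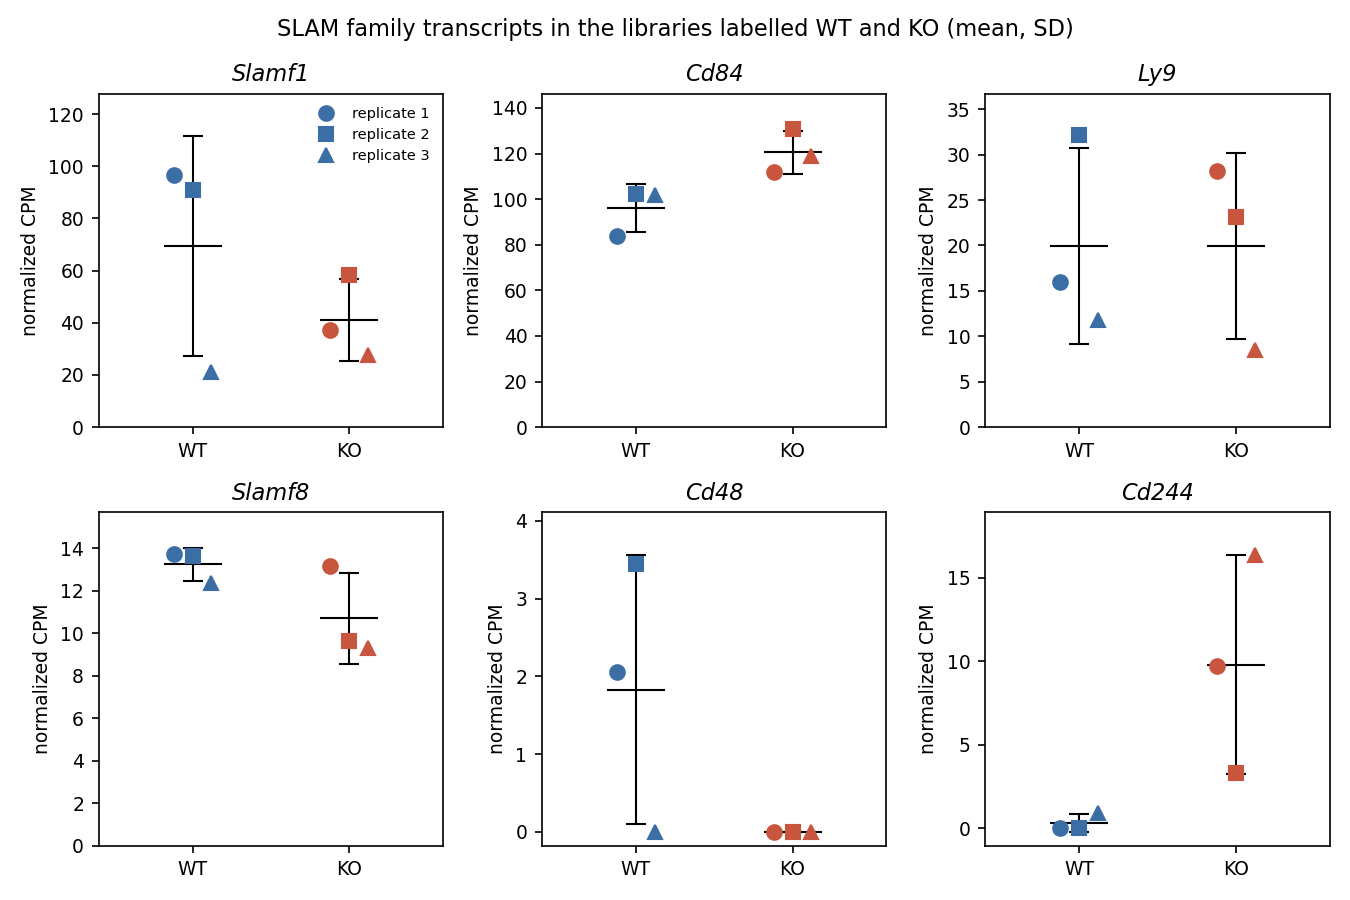
Normalized CPM (vertical axes, a separate scale for each gene) of 5 SLAM members and Cd244 in the libraries labelled WT (blue) and KO (red), with the replicate number given by the symbol and the mean and SD in black. For Slamf1, replicate 3 lies lowest in both groups, at 21.0 and 27.5 CPM, while for Cd84 every KO library (111.8 to 130.7 CPM) lies above every WT library (83.9 to 102.4 CPM).

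Cd48 encodes the ligand whose absence from the surface was the other criterion of the gate. It was counted 10 and 28 times in WT replicates 1 and 2, or 2.05 and 3.44 CPM, and 0 times in WT replicate 3 and in all 3 KO libraries. A library of either group could thus be at 0, and the groups overlapped at that value. Against 3 counts in each KO library, the WT mean of 1.83 CPM, taken as exact, was 3.12-fold higher. Only the counting error of the KO libraries enters this value, and that of the 38 WT reads does not. The value was 1.75-fold without WT replicate 2, which held 28 of the 38 counts, and 4.68-fold without WT replicate 3. Pooled over the KO libraries, 0 counts allow up to 0.195 CPM. Cd48 did not pass the filter. Fitted without a filter it had an edgeR adjusted p of 0.67 (unadjusted p = 0.024). DESeq2 gave an adjusted p of 0.60 (unadjusted p = 0.045), and the exact permutation p was 0.4. Since reads carried no molecular identifiers, 38 reads in all may stem from fewer molecules.

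The gate sets Slamf1 against Cd48, whose ratio within a library does not depend on its depth once both are detected. Both were detected in WT replicates 1 and 2 only. With 0.5 added to each count, the log2 ratio of Slamf1 to Cd48 was 5.49 and 4.70 in these libraries. It was 7.10 in WT replicate 3 and 8.53, 9.32 and 8.09 in KO replicates 1 to 3, where Cd48 was at 0 and the ratio was set by the Slamf1 count and the number added. These 4 values have no measured upper end, so whether WT replicate 3 lay below the KO libraries was not measured. The difference between the group means was 2.89 on the log2 scale with 0.5 added and 0.91 with 5 added (exact permutation p = 0.1, the smallest the design allows, and 0.2), and no difference is read from it.

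Cd84 encodes a receptor that binds itself and is also found on platelets, megakaryocytes and mast cells. It was counted 409, 833 and 329 times in WT replicates 1 to 3, or 83.9, 102.4 and 101.7 CPM. In KO replicates 1 to 3 it was counted 552, 718 and 588 times, or 111.8, 130.7 and 119.0 CPM. It was the only one of the 4 tested members whose groups did not overlap, each KO library being above each WT library, beside 6.25% of all genes tested that did so (12.4% in either direction). The means were 96.0 ± 10.5 CPM in WT and 120.5 ± 9.51 CPM in KO (SD, n = 3 in each group). The log2 fold change was 0.33 (standard error 0.23, 95% interval -0.18 to 0.83, edgeR adjusted p = 0.99), and the exact permutation p was 0.1, the smallest possible. Leaving out single libraries moved the log2 fold change between 0.24 and 0.38. The summed level of the 4 megakaryocyte genes examined was 137.8 to 214.3 CPM in WT and 255.0 to 340.6 CPM in KO. Of the 4, Ppbp and Gp9 were higher in KO without overlap, with log2 fold changes of 2.39 and 0.53. Itga2b (0.85) and Pf4 (-0.22) overlapped, and none of the 4 passed the edgeR test. Their part in the level of Cd84 was not tested. In bulk samples, more cells of a type and more RNA per cell cannot be told apart.

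Ly9 encodes CD229, another receptor that binds itself and is used to grade progenitors. It was counted 78, 262 and 38 times in WT replicates 1 to 3, or 16.0, 32.2 and 11.7 CPM. In KO replicates 1 to 3 it was counted 139, 127 and 42 times, or 28.2, 23.1 and 8.50 CPM. As with Slamf1, replicate 3 was the lowest library of each group. The mean was 20.0 ± 10.8 CPM in WT and 19.9 ± 10.2 CPM in KO (SD, n = 3 in each group), and the log2 fold change was -0.013 (standard error 0.57, edgeR adjusted p = 0.999). Its 95% interval ran from -1.29 to 1.26, so that changes of more than 2-fold in either direction were not excluded.

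Slamf8 encodes a short receptor of myeloid cells whose cytoplasmic tail lacks the motifs that bind the SAP adaptors. It was counted 67, 111 and 40 times in WT replicates 1 to 3, or 13.7, 13.6 and 12.4 CPM. In KO replicates 1 to 3 it was counted 65, 53 and 46 times, or 13.2, 9.65 and 9.31 CPM. KO replicate 1 fell within the WT range and the other two KO libraries were below it. The log2 fold change was -0.31 (standard error 0.53, 95% interval -1.49 to 0.87, edgeR adjusted p = 0.997), and the exact permutation p was 0.2. It ran from -0.48 without KO replicate 1 to -0.21 without KO replicate 3.

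Slamf6 and Slamf7, receptors best known from lymphocytes and, for Slamf7, plasma cells, were at 0 in all 6 libraries. Over the pooled reads, 0 counts allow up to 0.0949 CPM, again for counting error only. By contrast, Cd84, the neighbour of Slamf6 on the chromosome, had at least 329 counts in every library.

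Between genes, levels can be compared only per length, for which the deposited FPKM values (counts scaled by gene length and library total) were used. Cd84 was at 14.2 ± 2.37 FPKM and Slamf1 at 8.76 ± 5.27 FPKM over all 6 libraries (SD). Ly9 was at 3.87 ± 1.90 FPKM, Slamf8 at 3.82 ± 0.69 FPKM and Cd48 at 0.51 ± 0.83 FPKM. Among the genes tested, these mean levels put Cd84 at percentile 70.6 and Slamf1 at percentile 57.6, with Ly9 and Slamf8 at 33.9 and 33.6. Cd84 was above Ly9 and Slamf8 in 6 of 6 libraries, and Slamf1 was above Ly9 in 6 of 6 and above Slamf8 in 5 of 6. Neighbours in this order were less distinct: Slamf1 was above Cd84 in WT replicates 1 and 2 and below it in the other 4 libraries, and Ly9 was above Slamf8 in 3 of 6. The order depends on the gene lengths behind the FPKM values. The length they imply for Ly9 was 5203 bases, against 3307 exon bases in GENCODE M21. For Slamf1 it was 6378 against 6156 bases. The smallest log2 ratio of Slamf1 to Ly9 was 0.11, so their order in every library holds for the deposited lengths only.

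**Figure D2:**
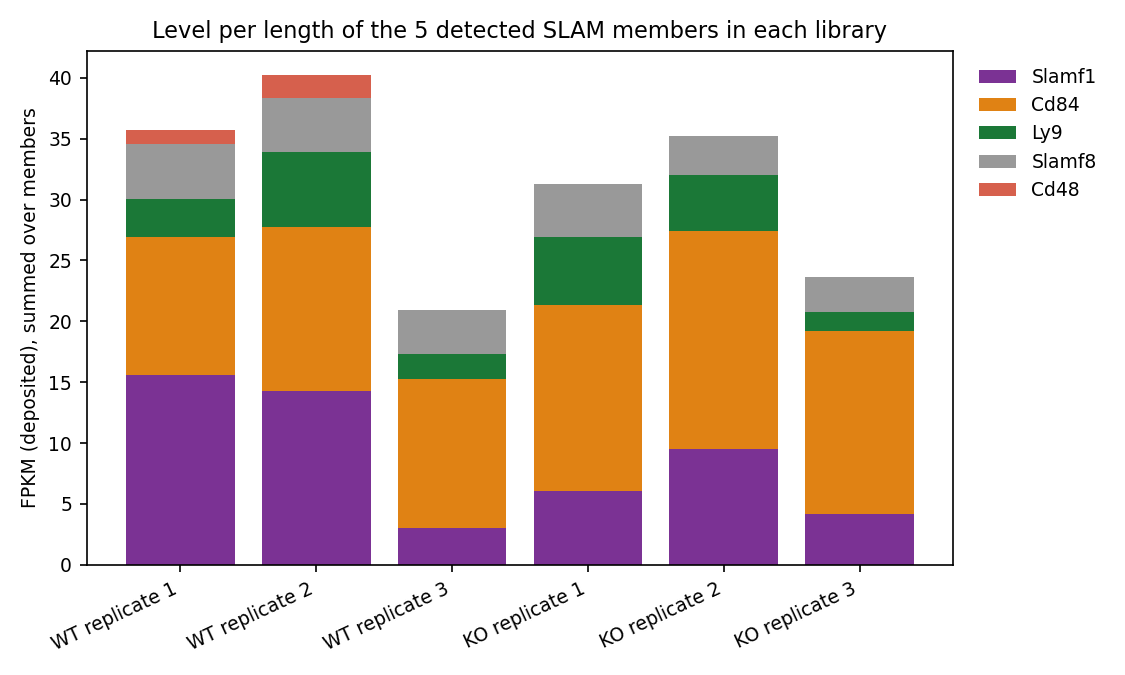
Deposited FPKM (vertical axis) of the 5 detected SLAM members, stacked for each library. The sum ran from 20.9 FPKM in WT replicate 3 to 40.2 FPKM in WT replicate 2, and Slamf1 made up 43.6% of it in WT replicate 1 and 14.4% in WT replicate 3.

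The members differed in how far they varied between libraries of 1 group. The coefficient of variation of Slamf1 was 60.6% in WT and 38.3% in KO, and that of Ly9 was 54.0% and 51.3%, above the medians over all genes tested of 33.1% in WT and 28.1% in KO. Cd84 varied by 10.9% and 7.89% and Slamf8 by 5.79% and 20.0%, below those medians. Slamf8 had only 40 to 111 counts per library, so its low values are uncertain. The biological coefficient of variation that edgeR fitted was 0.45 for Slamf1, 0.51 for Ly9 and 0.22 for Cd84. For Slamf8 it was 0.47, above the median of 0.38 over all genes tested. The make-up of the family differed between libraries accordingly. Slamf1 took 45.6, 37.5 and 14.3% of the counts on the 7 members in the WT libraries, in replicate order, and 19.6, 26.3 and 16.7% in the KO libraries. The share of Cd84 was 39.5, 42.2 and 69.3% in WT and 58.7, 58.9 and 72.4% in KO. For both shares, WT replicate 3 lay with the KO libraries and apart from the other two WT libraries.

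Outside the 7 members, 3 further family genes were examined. Cd244, the receptor of CD48, had 0, 0 and 3 counts in the WT libraries, in replicate order, and 48, 18 and 81 in the KO libraries. Every KO library, at 3.28 to 16.4 CPM, was above every WT library, at 0 to 0.927 CPM. The ratio of the pooled rates was 51.8 (147 counts against 3), with an exact 95% interval of 17.4 to 254.1 for counting error only. All 3 WT counts came from WT replicate 3. Without that library WT was at 0. The KO mean of 9.80 CPM, taken as exact, was 19.9-fold higher than 3 counts in each of the other WT libraries. The edgeR adjusted p without WT replicate 3 was 0.38. The spread between KO libraries was large, and the call depended on the tool. edgeR's quasi-likelihood test gave an adjusted p of 0.50 and an unadjusted p of 0.0066. DESeq2 gave an adjusted p of 0.021, where it called 149 of 15342 genes with an adjusted p (0.971%), and limma voom with quality weights gave 0.55. The exact permutation p was 0.1. Cd244 is also carried by NK cells and by some myeloid cells. The 4 NK cell genes summed to 19.8 to 42.0 CPM in WT and 15.1 to 25.9 CPM in KO, with Ncr1 and Gzma at 0 in all libraries. Nkg7, the most abundant of them, had a log2 fold change of -0.88 (edgeR adjusted p = 0.93), and Klrb1c had 0, 1 and 6 counts in WT and 27, 8 and 10 in KO. The 5 macrophage or monocyte genes summed to 2.26 to 24.7 CPM in WT and 9.46 to 18.2 CPM in KO, so that the sums overlapped. Of the 5, Adgre1 did not overlap, with 0 counts in WT and 2, 11 and 20 in KO, and Csf1r, Ly6c2, C1qa and C1qb overlapped. The 4 mast cell or basophil genes summed to 0.820 to 13.0 CPM in WT and 2.23 to 7.10 CPM in KO. The part of these cells in the Cd244 counts was not tested. Of the remaining genes, Slamf9 had 4 counts in KO replicate 3 and 0 elsewhere, and Cd2, the other receptor of CD48, was at 0 in all 6 libraries.

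The signalling genes were examined next, as a list of 25. The SAP family adaptors Sh2d1a, Sh2d1b1 and Sh2d1b2, which link the receptors to kinases, were at 0 in all 6 libraries. Fyn, the kinase that SAP recruits, was present, at 62.7, 46.0 and 30.6 CPM in the WT libraries and 29.2, 64.8 and 52.2 CPM in the KO libraries, and the groups overlapped. Of the 25 genes, 21 were tested and 0 passed in either direction in edgeR, with 1 gene at an unadjusted p under 0.05. This was Dok2, an adaptor that dampens kinase signals, with a log2 fold change of 0.68 (standard error 0.28, edgeR adjusted p = 0.80). The estimates were above 0 for 14 genes and below 0 for 7, with a median log2 fold change of 0.14.

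By role, the 5 tested kinases had a median log2 fold change of 0.27 and the 4 phosphatases, among them Ptpn6 and Inpp5d, which encode SHP-1 and SHIP-1, had a median of 0.22. The 8 effectors had a median of 0.41 and the 4 genes of the Beclin 1 lipid kinase complex, which Slamf1 binds in phagocytes, had a median of -0.12. Plcg1, a phospholipase, was the single gene of the 21 whose groups did not overlap, beside 12.4% of all genes tested. It was at 97.6, 126.8 and 115.6 CPM in the WT libraries and 74.6, 79.3 and 86.0 CPM in the KO libraries, a log2 fold change of -0.50 (standard error 0.24, edgeR adjusted p = 0.91).

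**Figure D3:**
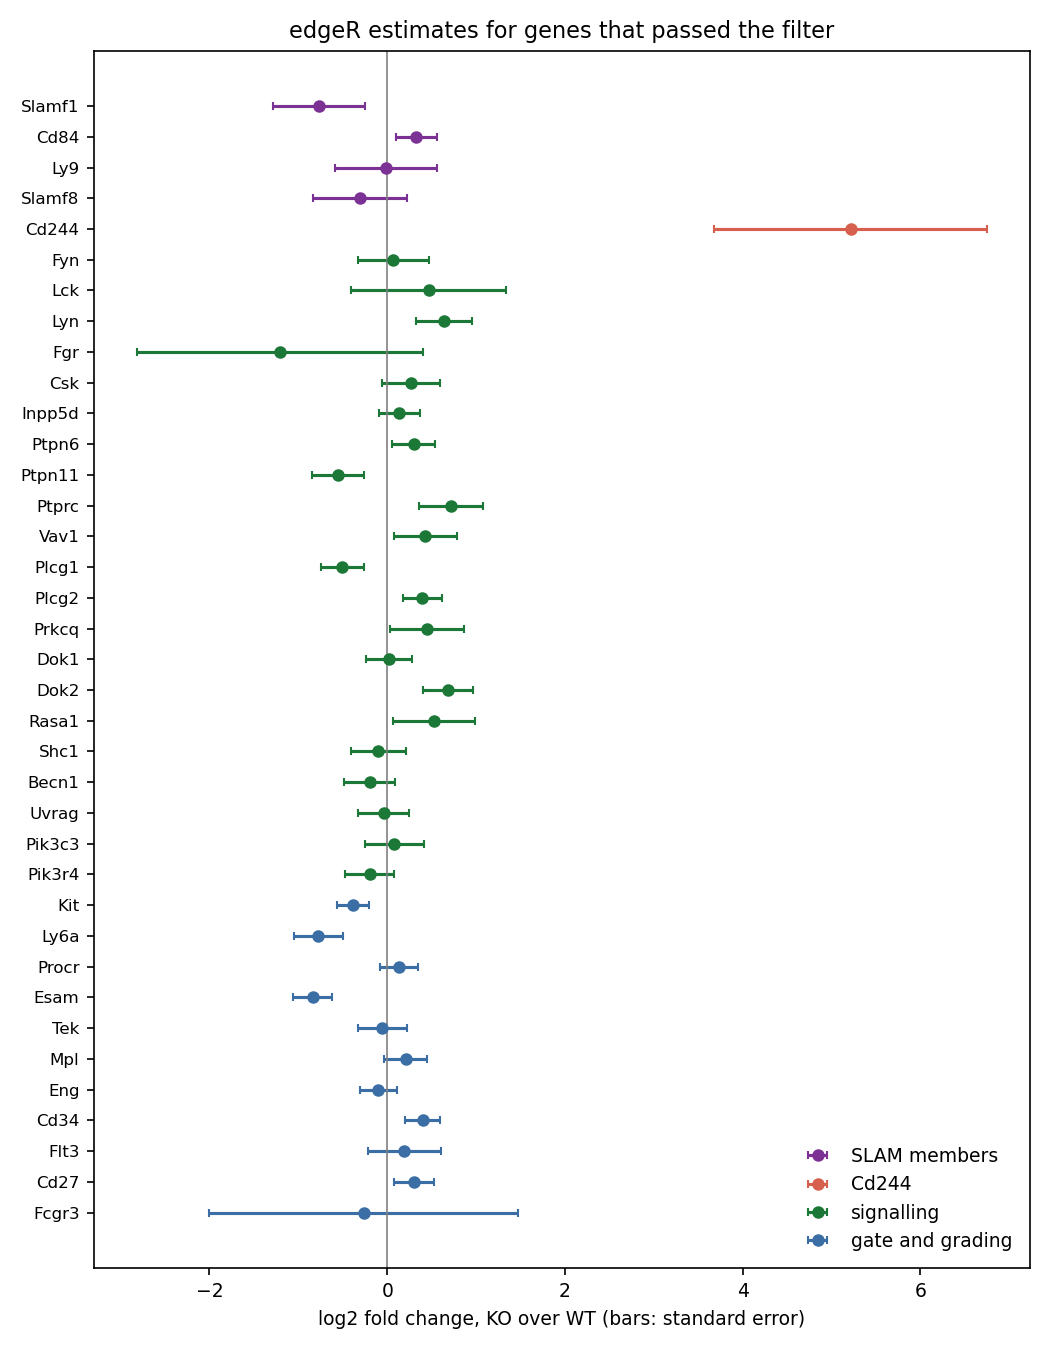
Log2 fold change of KO over WT (horizontal axis) with its standard error, from edgeR, for the genes that passed the filter among the SLAM members (purple), Cd244 (orange), the signalling list (green) and the genes used to gate or grade HSCs (blue). The 4 members lie between -0.77 and 0.33, and Cd244 lies at 5.22 with a standard error of 1.54, an estimate that depends on the small count added where WT is near 0.

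Slamf1, Cd48 and Cd244 are used together with other surface genes to grade HSCs, so these were set beside them. On the stem cell side of the gate, 8 of 8 genes were tested, 0 passed and the median log2 fold change was -0.24. Kit, Ly6a and Esam, which encode cKit, Sca1 and an adhesion molecule of HSCs, were lower in KO without overlap, 3 of 8 genes beside 6.15% of all genes tested. They were named after their values had been seen. Their log2 fold changes were -0.38, -0.78 and -0.84 (edgeR adjusted p = 0.91, 0.70 and 0.41). Of the 9 genes of the progenitor side given here, 6 were tested, 0 passed and the median was 0.25. Cd34, whose protein was gated out, was, like Cd244, higher without overlap (2 of 6 tested genes, beside 6.25% of all genes tested), at 295.7 to 360.1 CPM in WT and 384.4 to 519.7 CPM in KO (log2 fold change 0.40, edgeR adjusted p = 0.92). The first list includes Slamf1 and the second includes Cd48, Ly9 and Cd244.

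The members are neighbours on the chromosome, and 41 other annotated genes lie between the outermost of them. Of these, 33 were listed and 14 were tested. None passed in edgeR, with 2 at an unadjusted p under 0.05, and the median log2 fold change was 0.15. In 4 of them every KO library was above every WT library, and in 0 the reverse, beside 6.25% and 6.15% of all genes tested. These 4, and all but 1 of the 14 tested genes, lie in the gap between Slamf6 and Slamf8. Genes that did not overlap and had an absolute log2 fold change of at least 1 made up 5.14% of all genes tested, and 2 of the 14 were of this kind. Igsf8, which encodes a membrane protein of the immunoglobulin superfamily outside the SLAM family, was counted 147, 159 and 31 times in the WT libraries and 182, 260 and 207 times in the KO libraries. The log2 fold change came to 1.08 (standard error 0.45, edgeR adjusted p = 0.81). Gm37125, a transcript of unknown coding potential, had at most 31 counts in any library (0, 6 and 0 in WT and 15, 17 and 31 in KO).

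**Figure D4:**
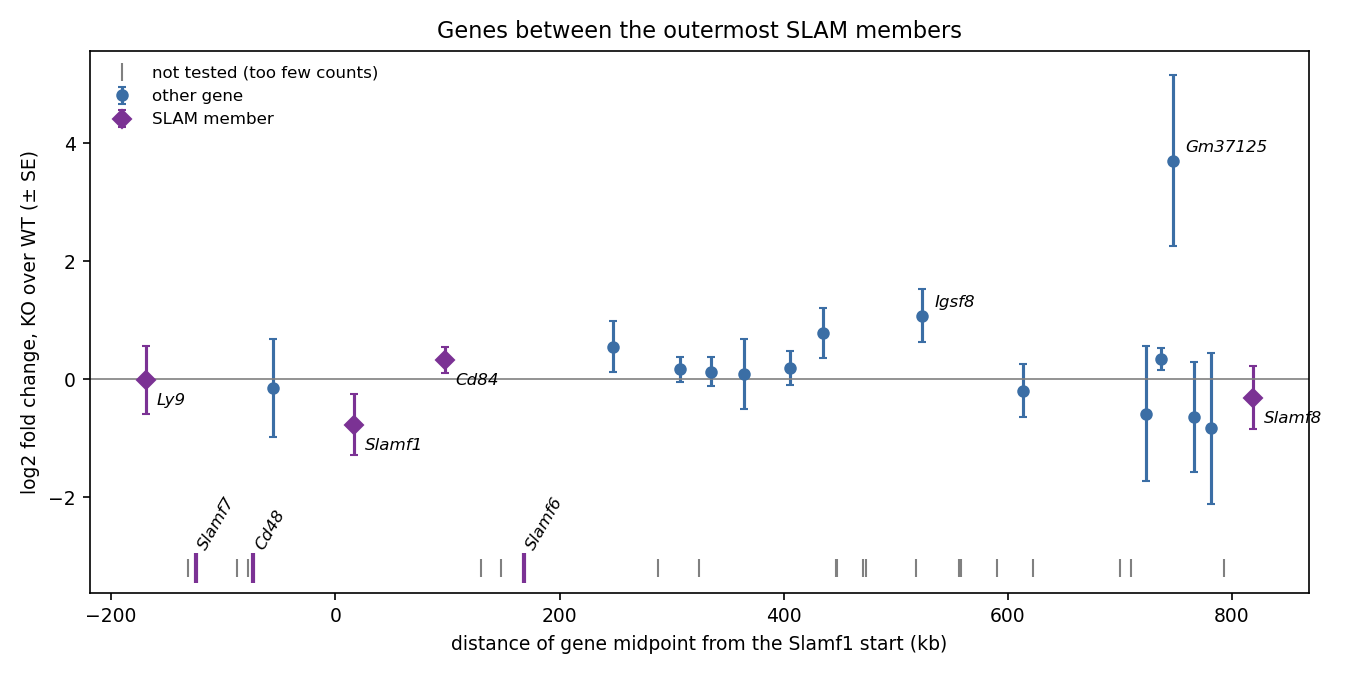
Log2 fold change of KO over WT with its standard error (vertical axis) for genes between the outermost SLAM members, by the distance of the gene's midpoint from the Slamf1 start in kb (horizontal axis), with members as purple diamonds, other genes as blue circles and genes not tested as ticks at the bottom. Slamf1 and Cd84 lie close together at -0.77 and 0.33, and Igsf8 and Gm37125 lie highest.

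The genes whose normalized levels followed Slamf1 most closely across the 6 libraries were Fdps (Pearson's r = 0.993), Qars (0.992) and Cenpl (0.984). For Cd48 they were Pop1 (0.987), Pmpca (0.978) and Cnpy4 (0.973). Since Cd48 was at 0 in 4 of the 6 libraries, its correlations rest on WT replicates 1 and 2 with 38 reads in all. These are descriptions over 6 libraries that differ in depth, and 129 of 10136 genes exceeded 0.9 for Slamf1 and 48 of 10137 for Cd48.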

How the data were processed

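The 7 members and all lists were chosen with earlier results of these data known. The authors deposited a table of read counts per gene, not normalized, and a table of FPKM values. TopHat, HTSeq and the build mm10 are listed in the submitters' processing notes, without versions. The labels name the SMART-Seq v4 kit and the study's methods the TruSeq kit, and no molecular identifiers are described. For the detected members, the deposited FPKM values equal counts scaled by the total of the column and by 1 length for each gene (spread at most 0.0014%). Columns were assigned to samples by their labels.

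The test on counts was edgeR 4.0.16 under R 4.3.3 (filterByExpr, TMM, robust quasi-likelihood test of KO against WT, all 12513 genes that passed, Benjamini-Hochberg adjustment at 0.05), after a check on simulated counts. Single values were compared by exact two-sided permutation of log2(CPM + 0.5). Alternatives used DESeq2 1.42.0 and limma 3.58.1 (log2 of FPKM plus 1 or 0.1, keeping genes with a mean FPKM of 1 or more, or all genes, and voom), other scaling and filters, a replicate block, and each library left out. Named genes were the members, Med23, other family genes, the SAP adaptors and Fyn, list genes without overlap and with an absolute log2 fold change of at least 1, and the 3 genes most like Slamf1 and Cd48; other list genes with values (Dok2, Plcg1, Kit, Ly6a, Esam, Cd34 and the markers) were named after their values were seen. Of the progenitor list, 1 gene is not reported here. Coordinates are from GENCODE M21 and upstream sequences from RefSeq.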

Additional observations from a re-analysis of the deposited data

How the results depend on the processing

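No SLAM member passed the threshold under any of the 16 alternatives run, where the median log2 fold change of the members ran from -0.41 to 0.06. The number of genes called over the whole table was 9 in edgeR, 149 with DESeq2, 5 with the replicate block, 15 with limma on log2(FPKM + 1) and a filter, 1 with limma and no filter, 0 with voom and quality weights (edgeR had 715 at an unadjusted p under 0.05), and 5 to 11 when each library was left out. Ly9, estimated at -0.013, turned to 0.021 with limma on log2(FPKM + 1), with and without the filter, and to 0.0082 with limma on log2(FPKM + 0.1). It ranged from -0.34 to 0.52 with libraries left out and was 0.096 without replicate 3 of both groups, a setting added after seeing the data. The cause was not tested, and no direction is given for it. Same-numbered WT and KO libraries had correlations of deviations of 0.170, 0.032 and 0.170. Libraries with different numbers had correlations from -0.173 to 0.035. The Y-linked counts also set replicate 3 of both groups apart. The labels do not say whether the numbers pair the libraries, so values with the replicate block are given as well. With the replicate block, Slamf1 was at -0.57 (edgeR adjusted p = 0.76), Cd84 at 0.33 and Ly9 at -0.042, and the sign-flip test of the ratio of Slamf1 to Cd48 gave an exact p of 0.25, with the limits of that ratio given above. The ratio of the deposited FPKM values, planned with nothing added, is undefined in the 4 libraries where Cd48 was at 0 and was not run. Depth limits Cd48, Slamf9 and Cd244, which were at or near 3 counts in at least 1 group.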
